A study of Mus musculus with 4 samples.

Results

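The 10 genes described here encode inhibitory and paired receptors of myeloid cells: Sirpa, Pirb, Lilrb4a, Cd300a, Cd300lf, Cd300lb, Pilra, Siglec1, Siglece and Siglecf. They were found as the rows of the deposited gene count table that carry these names, 10 of 54532 genes, and all 10 were kept by a filter that asked for 10 reads or more in 1 or more of the libraries and left 13715 genes. RNA was sequenced from mouse peritoneal macrophages labelled as wild type (WT), with 1 library for each of 4 conditions. Cells were cultured with 30% 4T1-CM or without it (normal medium), where 4T1-CM is the conditioned medium of the mouse mammary carcinoma line 4T1. Each medium carried either the solvent DMSO or 10 µM CH223191, an antagonist of the aryl hydrocarbon receptor (AHR). The study's design asks what the AHR of macrophages does in the niche that forms before breast cancer metastasis. In the study's methods, such cells came from BALB/c mice after injection of thioglycollate broth, so they are elicited cells from the peritoneal cavity and not lung macrophages. The number of mice pooled and the time in 4T1-CM are not given in the labels.

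Inhibitory receptors of this kind carry short tyrosine motifs in the cell (ITIMs) that recruit the phosphatases SHP-1 and SHP-2 and dampen signals from activating receptors. Many have an activating partner with a nearly identical outer part and no ITIM, which signals through the adaptor DAP12 (Tyrobp) or the Fc receptor gamma chain (Fcer1g), and such receptors are called paired. Among the 10, Cd300lb is an activating receptor that uses DAP12 and Siglec1 is an adhesion receptor without an ITIM, while the other 8 carry ITIMs.

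The libraries held 15535405 to 17557127 reads in genes, with 17395 to 18665 genes with at least 1 read. With 1 library per condition the spread between cultures is unknown, so a ratio between 2 libraries compares those libraries, and its 95% interval covers counting error only. Values are in CPM, read counts scaled to a common library size with TMM factors, unless stated otherwise. Where 4 values are given, they follow this order: normal medium with DMSO, then with CH223191, followed by 4T1-CM with DMSO, then with CH223191. All 9 macrophage markers checked were read, with Adgre1 at 4098, 3912, 17920 and 14168 reads and Csf1r at 8092, 8104, 18166 and 16341 reads. Marco was the one marker at 0 reads in both normal medium libraries, and the summed level of the 9 was 14303, 18500, 40655 and 43452 CPM. Most of this sum came from Lyz2 alone, with 11888, 15185, 32957 and 35572 CPM. Of the markers of other cells, those of fibroblasts summed to 914, 430, 2531 and 2000 reads and those of B cells to 322, 545, 139 and 86, while those of T cells, dendritic cells, mast cells and epithelial tumour cells summed to 0 to 66 reads in a library. The part of these cells in the results on 4T1-CM was not tested, and in bulk RNA fewer cells of a type and less RNA per cell cannot be told apart.

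Per kilobase of gene length, the 10 genes spanned a wide range. Sirpa stood first with 297, 268, 266 and 258 RPKM (the CPM divided by gene length in kilobases), and it held 42.6% to 50.3% of the summed reads of the 10 genes. Cd300lb had the second highest mean at 111 RPKM, followed by Lilrb4a at 71.1, Pirb at 64.2, Cd300a at 49.4 and Cd300lf at 43.7. Pilra was lower at 11.8 RPKM, and the Siglecs were lowest, with 3.68 for Siglecf, 2.17 for Siglec1 and 1.45 for Siglece. The order differed between media. Cd300a was above Cd300lf in both normal medium libraries and below it in both 4T1-CM libraries, and Siglecf was above Siglec1 and Siglece in normal medium and below Siglec1 and Siglece in 4T1-CM.

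**Figure D1:**
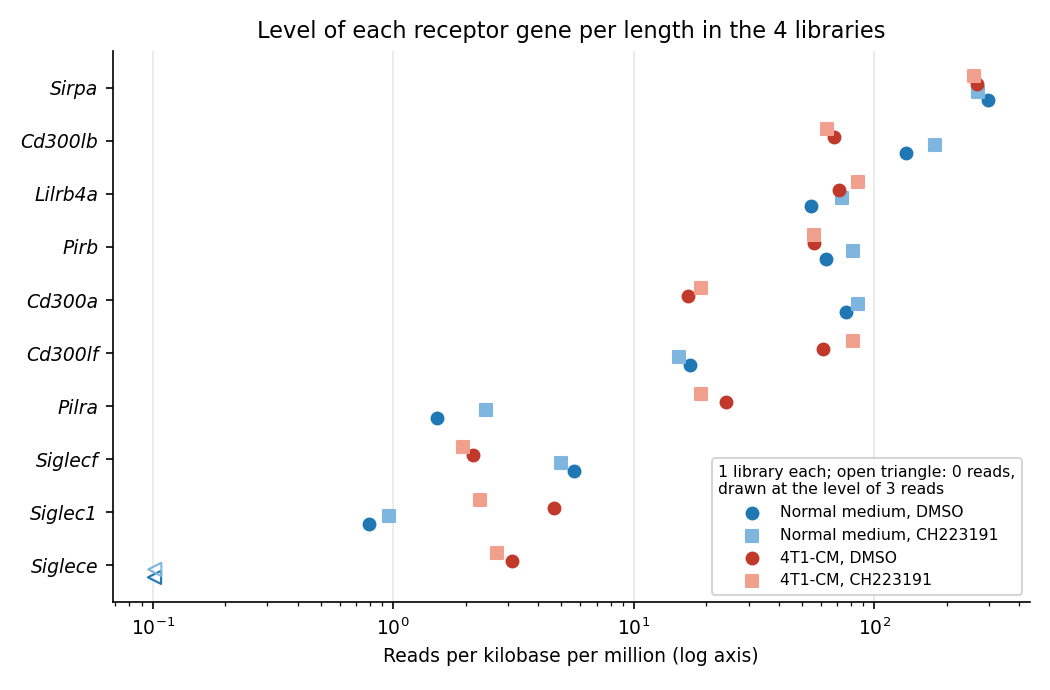
Level of each of the 10 receptor genes in RPKM (log axis), 1 point per library, with genes ordered by their mean. Sirpa lies between 258 and 297 in all 4 libraries, whereas Pilra, Cd300a, Cd300lf and the Siglecs separate by medium; open triangles stand for 0 reads and are drawn at the level of 3 reads.

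In 4T1-CM with DMSO, 4 of the 10 genes were at least 2-fold higher than in normal medium with DMSO (Pilra, Siglece, Siglec1 and Cd300lf), while 12.2% of all 13715 genes were. In the same pair of libraries 2 of the 10 were at least 2-fold lower (Cd300a and Siglecf), against 6.11% of all genes. With CH223191 in both media the same 4 were higher (12.0% of all genes) and 3 were lower, namely Cd300a, Siglecf and Cd300lb (7.86% of all genes). The 4 higher and the 2 lower genes passed 2-fold in both comparisons, against 8.18% and 3.38% of all genes. The median log2 ratio of the 10 was 0.12 with DMSO and 0.08 with CH223191, against 0.01 and 0.02 over all genes, so the group as a whole had no common direction.

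**Figure D2:**
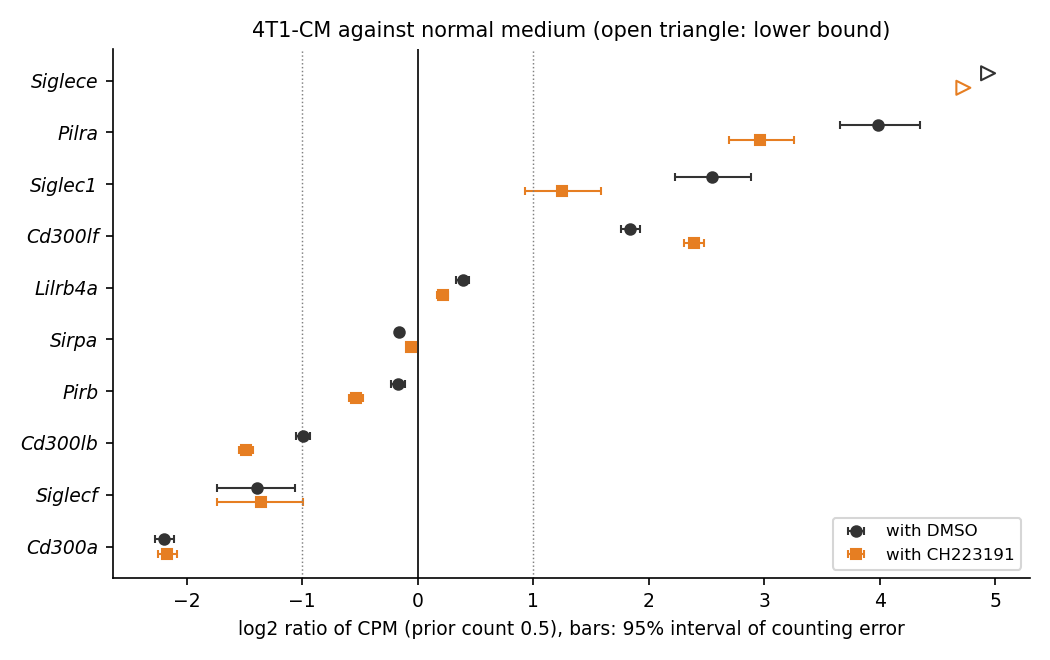
Log2 ratio of CPM between 4T1-CM and normal medium for each receptor gene, with DMSO (black circles) and with CH223191 (orange squares). Bars are 95% intervals of counting error, dotted lines mark 2-fold, and the triangles of Siglece, the points farthest to the right, are lower bounds; Pilra lies at 3.99 and 2.97 and Cd300a is lowest at -2.19 and -2.17.

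An additive fit of medium and inhibitor over the 4 libraries treats libraries that share a medium as replicates, with 1 residual degree of freedom (edgeR's quasi-likelihood test, Benjamini-Hochberg adjustment over all 13715 genes). Each condition had 1 library, so its p-values do not measure the spread between cultures of the same condition. Siglece passed the filter on low counts through the 4T1-CM libraries alone, so its direction was fixed in part by that filter. In the fit 4 of the 10 genes rose with 4T1-CM (Pilra, Siglece, Siglec1 and Cd300lf) and 3 fell (Cd300a, Cd300lb and Siglecf), against 16.4% and 16.2% of all genes. With 10 reads asked of every library Siglece was not kept, and 3 of the receptor genes left were past 2-fold upward in both comparisons. By that filter 851 of 11765 genes were at least 2-fold higher in 4T1-CM with DMSO and 869 with CH223191. The share of all genes past 2-fold in both was not counted by that filter. The adjusted p-values of the 7 in edgeR's fit ran from 8.06e-07 for Cd300a to 0.000333 for Siglec1. Sirpa (adjusted p = 0.516), Lilrb4a (adjusted p = 0.0925) and Pirb (adjusted p = 0.0739) did not pass.

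Sirpa (ENSMUSG00000037902, chr2:129592835-129632228, plus strand) encodes SIRP-alpha, the receptor for CD47 that restrains phagocytosis. Its level was 1457, 1318, 1306 and 1268 CPM. The largest of its 4 log2 ratios in size was -0.16 (95% interval -0.18 to -0.13), for 4T1-CM with DMSO, and with CH223191 the ratio was -0.05 (-0.08 to -0.03). CH223191 against DMSO gave -0.14 (-0.17 to -0.12) in normal medium and -0.04 (-0.07 to -0.01) with 4T1-CM. Of its activating relatives, Sirpb1a had 48, 36, 239 and 146 reads, with log2 ratios of 2.17 and 1.97 for 4T1-CM. Sirpb1c (17, 20, 43 and 43 reads) and Sirpb1b (3, 4, 9 and 14 reads) were also at least 2-fold higher in both 4T1-CM libraries. For Sirpb1b the interval with DMSO was -0.55 to 3.97, which includes 0. Sirpa and Sirpb1a were alike at 69.4% of aligned coding bases, and Sirpa shared no stretch of 50 bases with any other transcript. Of such stretches, 40.4% of those of Sirpb1a, 58.0% of Sirpb1b and 51.9% of Sirpb1c occurred elsewhere. How reads were divided among the Sirpb1 genes is thus uncertain.

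Pirb (ENSMUSG00000058818, chr7:3711409-3720391, minus strand) encodes PIR-B, an ITIM receptor that binds MHC class I. It had 282, 364, 252 and 251 CPM, highest in normal medium with CH223191. The log2 ratio for 4T1-CM was -0.17 (-0.23 to -0.11) with DMSO and -0.53 (-0.59 to -0.47) with CH223191. Its activating relatives Lilra6 (900, 1115, 774 and 740 reads) and Pira2 (411, 490, 274 and 359 reads) were likewise highest in normal medium with CH223191. Of the 50-base stretches of Pirb, 34.0% occurred in another transcript, and its coding sequence matched Pira2 at 95.4% and Lilra6 at 94.5% of aligned bases, so how reads were divided among the PIR genes is uncertain.

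Lilrb4a (ENSMUSG00000112148, chr10:51490956-51496611, plus strand) encodes gp49B, an ITIM receptor of macrophages and mast cells. It had 285, 383, 373 and 445 CPM, lowest in normal medium with DMSO and highest in 4T1-CM with CH223191. The log2 ratio for 4T1-CM was 0.39 (0.33 to 0.44) with DMSO and 0.22 (0.17 to 0.27) with CH223191. Its neighbour in the family, Lilr4b, had 15093, 19115, 16393 and 16852 reads, and per length Lilr4b stood above Lilrb4a by 3.19, 3.02, 2.41 and 2.24 times. The coding sequences matched at 871 of 907 aligned bases. The first 90 coding bases of both, from the GENCODE M21 transcripts, show how little separates reads of one from reads of the other, with the 2 differing positions in capitals.
Lilrb4a: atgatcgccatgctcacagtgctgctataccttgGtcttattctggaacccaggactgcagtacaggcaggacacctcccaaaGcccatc
Lilr4b: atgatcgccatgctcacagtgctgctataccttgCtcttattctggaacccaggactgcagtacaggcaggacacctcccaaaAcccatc
With the reads of both genes added, the log2 ratio for 4T1-CM was 0.09 with DMSO and -0.10 with CH223191. Lilr4b holds most of the reads in that sum, and alone it was at -0.02 and -0.21. The sum therefore does not show how reads were divided between the genes, which was not tested. In addition, the gene Gm49339 overlaps 35.3% of the exon bases of Lilrb4a on the same strand. By the measure used for Pirb, 47.2% of the stretches of Lilrb4a occurred in another transcript, and 33.7% in Gm49339. Gm49339 held at most 16 reads in a library. How counting treated reads of the overlap is not given, so this low count does not show whether reads of Lilrb4a were lost there. The level of Lilrb4a per length, its rank and its ratio to Lilr4b used the full gene length and carry this limit.

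The 3 CD300 receptors among the 10 lie close together on chromosome 11 and moved in different directions with 4T1-CM. Cd300a (ENSMUSG00000034652, chr11:114890041-114904654, plus strand) encodes an ITIM receptor for phosphatidylserine and phosphatidylethanolamine, lipids that dying cells expose. It had 5772, 6436, 1387 and 1465 reads, or 362, 405, 79.2 and 90.2 CPM. Both 4T1-CM libraries were far below both normal medium libraries, by 4.57 times with DMSO (log2 -2.19, -2.28 to -2.11) and 4.49 times with CH223191 (log2 -2.17, -2.25 to -2.08).

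Cd300lb (ENSMUSG00000063193, chr11:114922781-114934386, minus strand) lies beside Cd300a, with 18126 bases between the gene models, and encodes the activating member of the trio. It had 395, 519, 199 and 186 CPM, again lower in both 4T1-CM libraries. Its log2 ratio was -0.99 (-1.05 to -0.93) with DMSO, just short of 2-fold, and -1.48 (-1.54 to -1.42) with CH223191. The additive fit gave -1.24 (adjusted p = 0.000126, edgeR's quasi-likelihood test).

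Cd300lf (ENSMUSG00000047798, chr11:115116214-115133992, minus strand) encodes an ITIM receptor of macrophages and other myeloid cells that also binds phosphatidylserine. It lies 181827 bases from Cd300lb, and had 1399, 1264, 5510 and 6792 reads, or 87.8, 79.5, 315 and 418 CPM. Both 4T1-CM libraries were higher, by 3.59 times with DMSO (log2 1.84, 1.76 to 1.93) and 5.26 times with CH223191 (log2 2.39, 2.31 to 2.48). Per length, Cd300lf was at 0.223 and 0.181 times the level of Cd300a in normal medium and at 3.66 and 4.27 times in 4T1-CM, so the order of these ITIM receptors differed between the media. The coding sequences of Cd300a and Cd300lf matched at 62.0% of aligned bases, and only 3.45% and 2.44% of their 50-base stretches occurred in other transcripts.

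The bases just before the gene models of these neighbours are shown because the genes lie close together and differed in direction, with those before Siglece, which had reads in 4T1-CM alone. Sequences are from RefSeq (GRCm38.p6), 5′ to 3′ on the strand of the gene, in a promoter table that matched 7 of the 10 genes. Sirpa, Lilrb4a and Siglec1 had no entry. Capitals mark the motifs found among 5 searched on both strands.
Cd300a, chr11:114889891-114890040, plus strand: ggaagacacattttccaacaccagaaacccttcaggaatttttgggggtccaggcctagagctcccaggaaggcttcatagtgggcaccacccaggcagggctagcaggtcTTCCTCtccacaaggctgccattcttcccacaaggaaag
Cd300lb, chr11:114934387-114934536, minus strand: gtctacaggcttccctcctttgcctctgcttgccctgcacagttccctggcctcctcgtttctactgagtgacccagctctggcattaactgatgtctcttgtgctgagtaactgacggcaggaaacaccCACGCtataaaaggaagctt
Cd300lf, chr11:115133993-115134142, minus strand: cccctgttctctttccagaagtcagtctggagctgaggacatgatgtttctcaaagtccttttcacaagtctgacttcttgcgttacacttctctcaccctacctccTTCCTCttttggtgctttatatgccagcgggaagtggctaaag
Siglece, chr7:43660162-43660311, minus strand: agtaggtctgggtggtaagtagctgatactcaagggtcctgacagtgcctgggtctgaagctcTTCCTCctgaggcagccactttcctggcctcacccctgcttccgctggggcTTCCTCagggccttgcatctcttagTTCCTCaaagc
The motifs were GAGGAA, bound by PU.1 and other ETS factors, TTCNNNGAA (GAS, bound by STAT dimers), a pair of GAAA blocks with 2 bases between them (ISRE, bound by interferon-activated factors), GCGTG (the core of the AHR element, XRE) and TGANTCA (AP-1). Matches to different motifs did not overlap in the 7 windows. Positions are counted from the RefSeq start, which for Siglece, Cd300a and Cd300lf is that of the gene model. In the 250 bases before the start, GAGGAA or its complement TTCCTC occurred in 6 of the 7 genes (Pirb, Siglece, Siglecf, Cd300a, Cd300lf and Pilra) and in 23.1% of all 27025 promoters. Siglece held it 3 times, at -87, -36 and -11 from the start, Cd300lf at -43 and Cd300a at -39. Genes on either side of 2-fold thus carried the same letters. GCGTG or its complement occurred once, in Cd300lb at -35 from the RefSeq start (the stretch shown for Cd300lb ends at -16), against 28.2% of all promoters, and the ISRE letters occurred once, in Pilra at -178, against 3.04%. TTCNNNGAA (7.18% of all promoters) and TGANTCA (6.87%) occurred in none of the 7. A match is a description of letters and not a site of binding.

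Over all 12 CD300 genes in the table, 10 were kept and directions were mixed. Cd300e, an activating member, had 1, 1, 42 and 23 reads, while Cd300ld4 had 425, 280, 127 and 115 reads and Cd300lg had 12, 13, 2 and 3 reads. Cd300c2 (4171, 5567, 3457 and 3472 reads) and Cd300ld (1452, 1660, 1362 and 1268 reads) stayed within 2-fold between media. Cd300ld5 had 127, 18, 7 and 39 reads, with log2 ratios of opposite sign in the 2 comparisons (-4.22 and 1.06), and every one of its 50-base stretches occurred in another transcript. Of the stretches of Cd300ld4, 93.8% occurred in Cd300ld5, so how reads were divided between these genes is uncertain. Cd300lf and Cd300ld matched at 83.9% of aligned coding bases. With the reads of the Cd300ld genes added to those of Cd300lf, the log2 ratio for 4T1-CM was 0.86 with DMSO, under 2-fold, and 1.23 with CH223191. Only 1.80% of the 50-base stretches of Cd300lf occurred in Cd300ld. The sum mixes the reads of several genes and does not show how reads were divided among them.

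**Figure D3:**
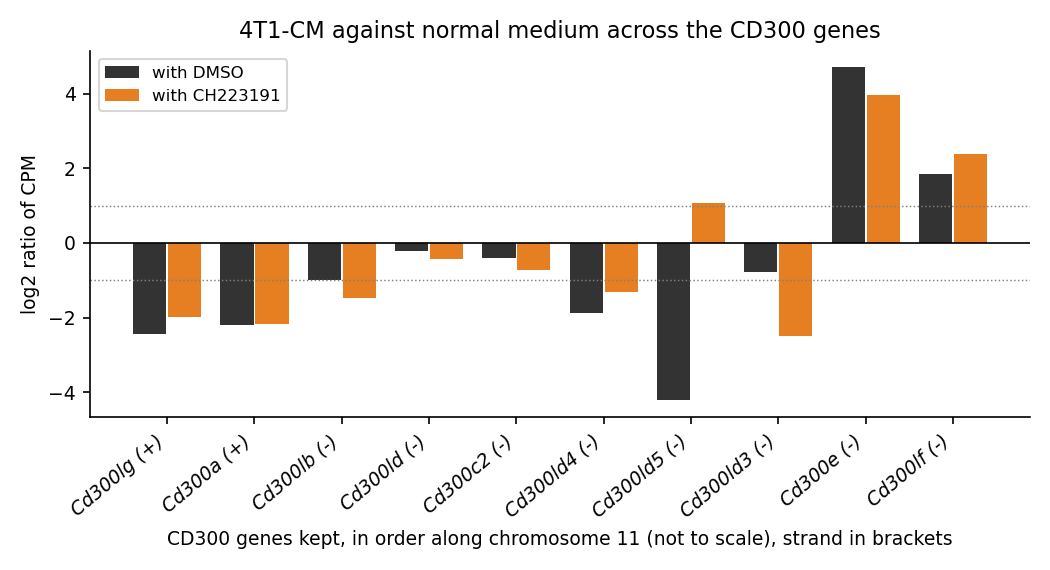
Log2 ratio of CPM between 4T1-CM and normal medium for the 10 CD300 genes kept, in their order along chromosome 11 (not to scale), with DMSO (black) and with CH223191 (orange). Cd300a and Cd300lb are below 0, Cd300lf is above 0, and Cd300ld5 has bars of opposite sign; the bars of Cd300e and Cd300lg rest on 1 to 3 reads in 1 of the media.

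Pilra (ENSMUSG00000046245, chr5:137821952-137836281, minus strand) encodes an ITIM receptor that binds sialylated O-linked glycans on proteins. It had 75, 119, 1312 and 953 reads, or 4.70, 7.48, 74.9 and 58.7 CPM. Both 4T1-CM libraries were above both normal medium libraries, by 15.8 times with DMSO (log2 3.99, 3.66 to 4.35) and 7.81 times with CH223191 (log2 2.97, 2.69 to 3.26). The activating partners were higher too, Pilrb1 with 9, 15, 156 and 110 reads (log2 3.91 and 2.80) and Pilrb2 with 12, 12, 181 and 149 reads (log2 3.73 and 3.55). Per length, Pilra was 5.28, 5.02, 5.33 and 5.49 times as high as Pilrb1, where the normal medium values rest on 9 and 15 reads of Pilrb1. Against Pilrb2 it was 3.96, 6.28, 4.59 and 4.05 times as high, with 12 reads of Pilrb2 in each normal medium library. Pilra and Pilrb1 matched at 83.9% of aligned coding bases. On the opposite strand Zcwpw1 overlaps 15.1% of the exon bases of Pilra with at most 28 reads in a library, and reads of the overlap cannot be assigned to a gene where counting did not use strand.

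The Siglecs bind sialic acid on glycans. Siglec1 (ENSMUSG00000027322, chr2:131069220-131086765, minus strand), or sialoadhesin, marks subsets of tissue macrophages and is known as an interferon-induced gene. It had 90, 109, 580 and 266 reads, or 5.65, 6.85, 33.1 and 16.4 CPM. The libraries in 4T1-CM were higher by 5.84 times with DMSO (log2 2.55, 2.23 to 2.89) and by 2.38 times with CH223191 (log2 1.25, 0.93 to 1.59).

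Siglece (ENSMUSG00000030474, chr7:43651070-43660161, minus strand) encodes an ITIM Siglec of neutrophils, monocytes and macrophages. It had 0 reads in both normal medium libraries, whereas the 4T1-CM libraries held 101 (DMSO) and 81 (CH223191). With a count of 0 read as up to 3 reads per library, it was at least 30.7-fold higher in 4T1-CM with DMSO and at least 26.4-fold higher with CH223191. These bounds leave out the counting error of the 101 and 81 reads. None of its 50-base stretches occurred in another transcript. Of the neutrophil markers, Ly6g, Retnlg and S100a9 were at 0 reads in all 4 libraries, and Cxcr2 had 12, 9, 2 and 0 reads. The summed level of the 9 markers was 67.6, 74.6, 242 and 181 CPM. Most of it came from Csf3r (929, 959, 1521 and 1759 reads), Mmp8 (35, 21, 2142 and 759 reads) and S100a8 (99, 190, 560 and 412 reads). The part of such cells in the result was not tested.

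Siglecf (ENSMUSG00000039013, chr7:43351341-43359531, plus strand) encodes an ITIM Siglec known from eosinophils and alveolar macrophages, and it lies 291538 bases from Siglece. It had 251, 221, 105 and 88 reads, or 15.7, 13.9, 5.998 and 5.42 CPM, lower in both 4T1-CM libraries. The log2 ratio was -1.39 (-1.73 to -1.06) with DMSO and -1.35 (-1.732 to -0.996) with CH223191. The eosinophil markers Epx, Prg2 and Prg3 were at 0 reads in all 4 libraries, and the summed reads of the 5 eosinophil markers were 8, 8, 3 and 9. Among the other Siglecs, Cd33 had 711, 798, 4463 and 4058 reads (log2 2.51 and 2.31 for 4T1-CM) and Siglecg had 3, 1, 23 and 12 reads. Cd22 (1352, 1565, 1337 and 1250 reads) and Mag (204, 260, 130 and 126 reads) were not higher in 4T1-CM, and Siglech was at 0 reads throughout.

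Over all relatives of the 10 genes, 24 of 34 listed were kept, and in both 4T1-CM comparisons 8 of the 24 were past 2-fold upward and 2 downward, against 8.18% and 3.38% of all genes. The 8 were Sirpb1a, Sirpb1b, Sirpb1c, Cd33, Siglecg, Cd300e, Pilrb1 and Pilrb2, and the 2 were Cd300ld4 and Cd300lg. Cd300e, Siglecg and Sirpb1b had fewer than 10 reads in both normal medium libraries and were kept through 4T1-CM alone, and Cd300lg was kept through normal medium alone, so the filter fixed their directions in part. Their median log2 ratio was -0.25 with DMSO and -0.28 with CH223191.

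Fewer of the 10 genes were past 2-fold with CH223191 than with 4T1-CM. In normal medium 0 of the 10 passed 2-fold in either direction, against 4.84% of all genes higher and 3.31% lower. In 4T1-CM 0 of the 10 were at least 2-fold higher (2.75% of all genes) and 1 was at least 2-fold lower (2.66% of all genes). That gene was Siglec1, at 33.1 CPM with DMSO and 16.4 CPM with CH223191, which is 2.02 times lower (log2 -1.02, -1.23 to -0.80). This value lay at the limit of 2-fold, and its interval reaches to both sides of that limit. In normal medium its log2 ratio was 0.28 (-0.14 to 0.70), an interval that includes no difference. None of the 10 passed 2-fold the same way in both media, against 0.649% of all genes higher and 0.481% lower.

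**Figure D4:**
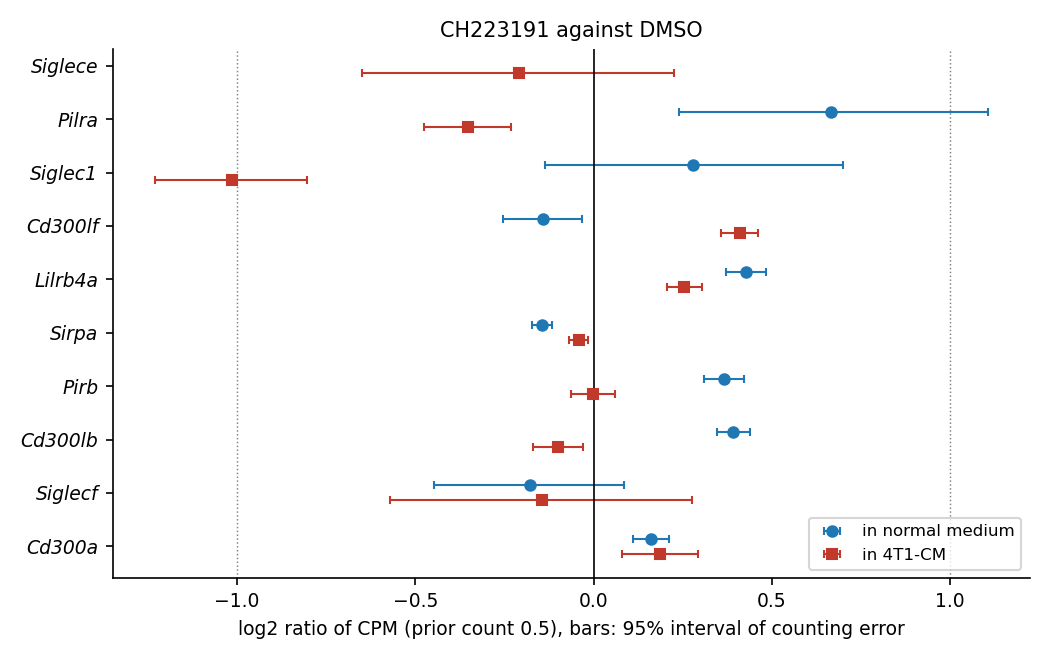
Log2 ratio of CPM between CH223191 and DMSO for each receptor gene, in normal medium (blue circles) and in 4T1-CM (red squares), with 95% intervals of counting error and dotted lines at 2-fold. Siglec1 in 4T1-CM, at -1.02, is the one point past a dotted line, and Siglece has no point in normal medium because both libraries held 0 reads.

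The other ratios of CH223191 to DMSO were smaller. In normal medium Pilra was at a log2 ratio of 0.67 (0.24 to 1.11), Lilrb4a at 0.43 (0.37 to 0.48), Cd300lb at 0.39 (0.35 to 0.44) and Pirb at 0.37 (0.31 to 0.42), all higher with CH223191. In 4T1-CM Cd300lf was at 0.41 (0.36 to 0.46) and Lilrb4a at 0.25 (0.21 to 0.30), whereas Pilra was at -0.35 (-0.47 to -0.23). Pirb in 4T1-CM, at -0.00 (-0.06 to 0.06), and Siglecf in both media, at -0.18 (-0.45 to 0.09) and -0.15 (-0.57 to 0.28), had intervals that include 0. Siglece in 4T1-CM was at -0.21 (-0.65 to 0.23), an interval that also includes 0. Cd300a was at 0.16 and 0.19. In the additive fit 0 of the 10 passed for CH223191, against 0.0729% of all genes higher and 0.00729% lower (edgeR's quasi-likelihood test), and at an unadjusted p under 0.05 there was 1, Lilrb4a (log2 0.34, adjusted p = 0.753), against 6.42% of all genes.

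The response to 4T1-CM was then set side by side with and without the antagonist. The log2 ratio with CH223191 was lower than that with DMSO by 1.29 for Siglec1 (difference -1.29, -1.75 to -0.84) and by 1.02 for Pilra (difference -1.02, -1.45 to -0.59). It was also lower for Cd300lb (difference -0.49, -0.58 to -0.41), whose distance below normal medium was thus larger, for Pirb (difference -0.37, -0.45 to -0.28) and for Lilrb4a (difference -0.17, -0.25 to -0.10). For Cd300lf it was higher (difference 0.55, 0.43 to 0.67), and for Sirpa the difference was 0.10 (0.06 to 0.14). For Cd300a (difference 0.03, -0.09 to 0.14) and Siglecf (difference 0.03, -0.45 to 0.52) the intervals include 0. These intervals cover counting error, and with 1 library per condition the differences themselves were not tested against a spread between cultures.

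Interferon-stimulated genes are given beside Siglec1, which is known to respond to interferon. Of 15 listed, 13 were kept, and their median log2 ratio for 4T1-CM was 1.78 with DMSO and 1.06 with CH223191. The median for CH223191 was 0.34 without 4T1-CM and -0.55 with it, against 0.003 and 0.004 over all genes. With 4T1-CM 0 of the 13 were above 0, and the share of all genes above 0 was not counted. Irf7, a regulator of interferon genes, had 225, 330, 2954 and 2132 reads, and Bst2 had 691, 872, 2715 and 1861 reads. Their part in the values of Siglec1 was not tested.

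A list of 12 ligands covered these receptors and their relatives. In it Cd24a (538, 440, 2372 and 1656 reads), a ligand of Siglecs, was at least 2-fold higher in both 4T1-CM comparisons. So was Fn1 (14572, 17381, 39547 and 48430 reads), which encodes fibronectin, a ligand of gp49B. Spn (134, 130, 55 and 47 reads), a sialylated surface protein that Siglec1 binds, was at least 2-fold lower in both. B2m, the light chain of MHC class I, had 12260, 16773, 29948 and 23629 reads, and H2-D1, a heavy chain, had 21694, 21661, 24328 and 22110 reads. Apoe, whose protein binds the human counterpart of gp49B, had the most reads of the list, 60230, 87958, 39277 and 54166, with log2 ratios of -0.75 and -0.73 for 4T1-CM and of 0.55 and 0.57 for CH223191. Cd47, named after its values were seen because it encodes the ligand of SIRP-alpha, had 2032, 1701, 4181 and 3834 reads, with log2 ratios of 0.91 and 1.14 for 4T1-CM, while Sirpa itself was within 0.16 of 0.

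None of 3 adaptors of activating receptors passed 2-fold in 4T1-CM with DMSO, and 2 were at least 2-fold lower in the comparison with CH223191. Tyrobp, the adaptor of Cd300lb and the PILRB receptors, had 10225, 17646, 6714 and 5919 reads (log2 -0.74 and -1.61 for 4T1-CM), highest in normal medium with CH223191. Hcst had 306, 450, 236 and 203 reads (log2 -0.51 and -1.18), and Fcer1g had 3847, 4995, 4664 and 3770 reads (log2 0.14 and -0.44). Cd300lb and its adaptor were thus both highest in normal medium with CH223191 and lowest in 4T1-CM with CH223191. Hcst and the related receptor Lair1 (1440, 1680, 854 and 693 reads) were highest and lowest in the same libraries, so this was not particular to the pair.

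The phosphatases that ITIMs recruit stayed within 2-fold. Ptpn6, which encodes SHP-1, had 2509, 3370, 2601 and 2480 reads (log2 -0.08 and -0.47 for 4T1-CM), and Ptpn11, which encodes SHP-2, had 2189, 2012, 2350 and 2146 reads (log2 -0.03 and 0.06). Inpp5d, the lipid phosphatase SHIP-1, had 2433, 2526, 3495 and 3286 reads (log2 0.39 and 0.35). In this list of 10, Pag1, a membrane adaptor for Csk, was at least 2-fold higher in both 4T1-CM comparisons (297, 204, 1020 and 1046 reads). The inhibitory adaptors Dok1 (1481, 1560, 688 and 630 reads) and Dok2 (1283, 1327, 495 and 464 reads) were at least 2-fold lower in both. Of 8 kinases, Fgr, of the Src family, was at least 2-fold higher in both (358, 508, 1178 and 1205 reads), and Lyn, which phosphorylates ITIMs, was at log2 ratios of -0.03 and -0.00.

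For the enzymes and the transporter that make, attach or remove sialic acid, 16 of 21 listed genes were kept, of which 0 passed 2-fold upward and 1 downward in both 4T1-CM comparisons. That gene was St3gal5, the synthase of the ganglioside GM3, with 818, 861, 361 and 364 reads. Their median log2 ratio was -0.30 with DMSO and -0.36 with CH223191, while the sialidase gene Neu1 had 2293, 2262, 4350 and 3750 reads (log2 0.79 and 0.70).

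**Figure D5:**
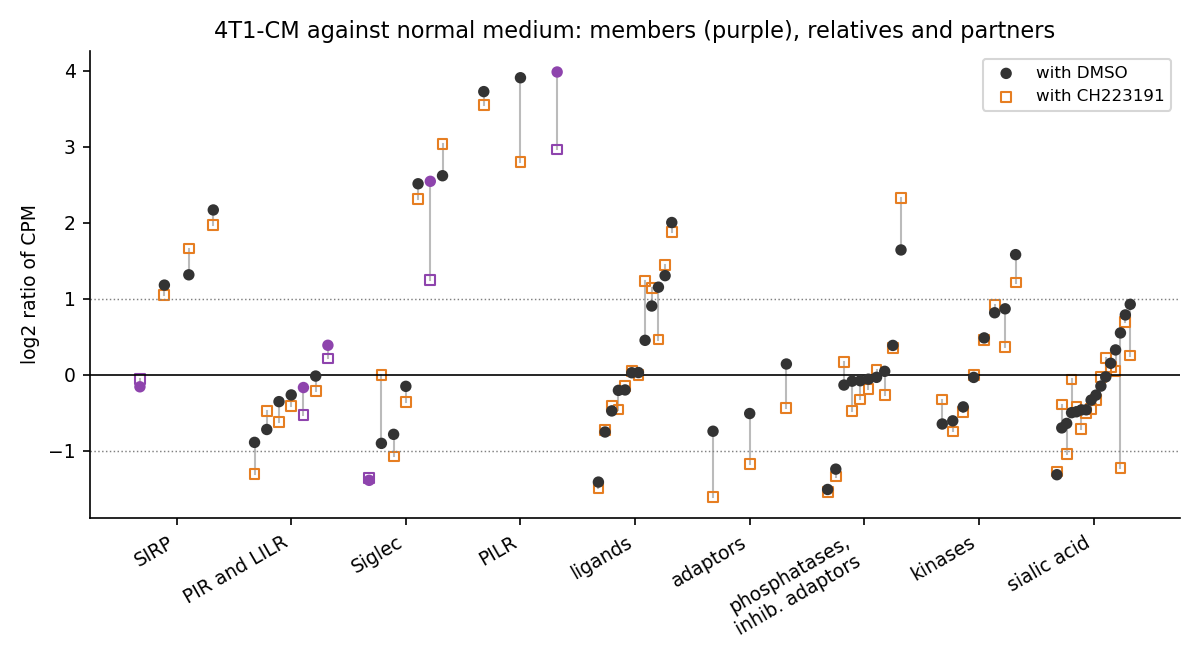
Log2 ratio of CPM between 4T1-CM and normal medium for the receptors (purple), their relatives and their partner genes outside the CD300 family, grouped by family or role, with DMSO (filled circles) and with CH223191 (open squares). Of the genes drawn, Pilra with DMSO lies highest at 3.99, the PIR and LILR genes lie near or below 0, and most sialic acid genes lie below 0; dotted lines mark 2-fold, and genes whose ratio rests on 0 reads have no point.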

How the data were processed

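The deposited table held read counts per gene made by the authors, not normalized, with 1 column for each of 4 libraries and a listed length, position and strand for each gene. The submitters' processing notes name HISAT2 2.0.5 and DESeq2, and the labels name total RNA and an NEBNext Ultra library kit. Its columns carry medium names, and RPMI was read as normal medium and TCM as 4T1-CM, from the methods of the study. The build and the strand setting of counting are not given in the sources used here. Positions of all 10 receptor genes were identical to GENCODE M21 (GRCm38), as were those of 53462 of 54409 shared identifiers.

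Genes reaching 10 reads in any library were kept. Counts were scaled with TMM (edgeR 4.0.16, R 4.3.3), with factors of 0.986 to 1.03. Log2 ratios of CPM between 2 libraries used a prior count of 0.5, and 95% intervals were exact Clopper-Pearson intervals of the split of reads, which cover counting error only. A count of 0 was read as up to 3 reads, 0.171 to 0.189 CPM. A fold of 2 is used as a size and not as a test. An additive quasi-likelihood fit of medium and inhibitor was an alternative. Copies were sought as 50-base stretches shared between GENCODE M21 transcripts, and motifs in the RefSeq promoter table. Ratios and fit were tested on simulated data.

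All 10 receptor genes are described. In each gene list, at most the 5 genes with the most reads and those past 2-fold in the same direction in both 4T1-CM or both CH223191 comparisons are named, with exceptions stated. The receptors and the lists were chosen with earlier results of these data known. The alternatives were scaling by DESeq2 1.42.0 or by total counts, a fit to protein-coding genes alone, a larger prior count (5), a stricter filter (10 reads in every library) or none, and adding the reads of relatives.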

Additional observations from a re-analysis of the deposited data

Results flagged for a closer look

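The sign of the ratio of CH223191 to DMSO differed between media for 3 of the 10 genes, with counting intervals that exclude 0 on both sides. The difference itself was not tested, since each condition had 1 library. Pilra had a log2 ratio of 0.67 in normal medium, from 75 to 119 reads, and of -0.35 in 4T1-CM, from 1312 to 953 reads. For Cd300lb it was 0.39 in normal medium and -0.10 with 4T1-CM. Cd300lf went the other way, with -0.14 in normal medium and 0.41 in 4T1-CM.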

How the results depend on the processing

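No paired analysis was possible because each condition had 1 library. No ratio of the 10 genes that was past 2-fold changed direction under the alternatives, and the counts of genes past 2-fold stayed within 1.5 times of those reported. Cd300lb in 4T1-CM with DMSO lay at the limit: its log2 ratio of -0.99 became -1.03 with total counts and -1.01 with no filter, and the count of lower genes became 3 in place of 2. Siglec1 for CH223191 in 4T1-CM lay at the limit too, with a log2 ratio of -1.02 that became -1.003 with a prior count of 5. Siglece was lost to the filter of 10 reads in every library, which left 3 higher genes in place of 4. With the reads of relatives added, Cd300lf with DMSO fell short of 2-fold (log2 0.86 in place of 1.84), and the count of higher genes became 3 with DMSO and 3 in both comparisons. Over the 39 ratios, total counts moved 6 by more than the counting interval, by at most 0.06, and adding the reads of relatives moved 8, by at most 1.17. The gap between the 4T1-CM responses with CH223191 and with DMSO became 0.15 for Sirpa with total counts (0.10 as reported) and 0.37 for Cd300lf with relatives' reads added (0.55 as reported). Total counts also moved the median log2 ratio for 4T1-CM over all genes, by -0.04 with DMSO and by 0.008 with CH223191. What else moved these gaps was not tested. Over all genes, the counts past 2-fold moved with the filter, which sets how many weakly read genes are kept. For 4T1-CM with DMSO, 1673 higher and 838 lower of 13715 genes became 4635 and 2535 of 21917 with no filter and 851 and 499 of 11765 with 10 reads in every library. With CH223191 in both media, 1648 and 1078 became 4367 and 2995, or 869 and 677. For CH223191 in normal medium, 664 and 454 became 2815 and 2260, or 226 and 89, and in 4T1-CM 377 and 365 became 2555 and 2688, or 83 and 53. Depth limits Siglece, Siglecf and, in normal medium, Pilra and Siglec1, whose intervals are the widest.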

Other observations

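The genes whose profile over the 4 libraries was most like that of Pilra were sought among the 8322 genes whose mean reached 10 CPM, by the root-mean-square distance of the 3 log2 ratios against normal medium with DMSO. Siglece was passed over for this search, since its ratios against 0 reads depend on the prior count. The 3 nearest to Pilra were Ptges at 0.270, which encodes a prostaglandin E synthase, Irf7 at 0.343 and Vegfa at 0.346, the vascular growth factor. For Cd300a, the kept gene with the lowest ratios of the 10, the nearest were Gm17749 at 0.0808, Arhgap25 at 0.109, a GTPase-activating protein for Rac, and Ak8 at 0.116, an adenylate kinase. These distances are over 4 libraries and describe likeness alone.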
